A study of Mus musculus with 6 samples.

Results

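The genes described here are 33 markers of the lung's mesenchyme and pleural lining, measured in libraries of purified alveolar type 2 (AT2) cells, the surfactant-producing cells of the alveolar epithelium. They were chosen by symbol as non-collagen markers of fibroblasts and their matrix (20 genes), smooth muscle (6), pericytes (3) and mesothelium (4). All 33 stood in the deposited table of 23478 genes, and all 33 were among the 14477 genes with enough counts to be tested. The libraries, 3 per group, came from adult mice of mixed strain background, either carrying a conditional deletion of the phospholipid transporter gene Abca3 (Abca3 cKO) or serving as controls. The series' design places both groups at 6 days post tamoxifen, the drug that activates an inducible recombinase, while a protocol label can be read as 6 days of tamoxifen. AT2 cells were purified by depleting other cells, and the amplified RNA was sequenced without a record of strand. The labels give neither the Cre driver nor the genotype of the controls, and do not tell whether each replicate was a separate animal; the p-values therefore measure only the spread between these libraries.

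Lung fibroblasts build the alveolar scaffold of elastic fibres and proteoglycans, lie against AT2 cells and supply them with growth factors. Smooth muscle surrounds airways and vessels, pericytes wrap capillaries, and mesothelial cells form the outer lining of the lung. Genes of these cells are used as markers of mesenchymal or pleural RNA in an epithelial preparation, although several of them, such as Sparc, Npnt, Fn1 and Vim, can also be expressed by epithelial cells. In bulk RNA, fewer cells of a type and less RNA per cell cannot be told apart.

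The library totals ran from 23531330 to 26071229 counts. Abca3 itself stood at 571, 611 and 606 CPM (read counts scaled to a common library size, with TMM factors) in Abca3 cKO replicates 1, 2 and 3, against 635, 694 and 689 CPM in controls, a difference that did not pass (edgeR quasi-likelihood test, adjusted p = 0.696); the deleted exons are not named in the labels, and this level does not check the genotypes. Control replicate 2 stood apart in Xist, the RNA of the inactive X chromosome, at 2345 CPM against 5.36 to 9.36 CPM elsewhere, and had 0 counts of the Y-linked gene Ddx3y. Over all genes, 0.38% of the 14477 tested were called at an adjusted p under 0.05, 0.262% higher and 0.117% lower in Abca3 cKO. Of the markers of the labelled cell type, Sftpc stood at 15395 to 27128 CPM. Scgb1a1, the secretory protein of club cells, was above Sftpc in CPM in every library, at 48096 to 75051 CPM. Its deposited values scaled to transcript length (RPKM) were 0 in Abca3 cKO replicate 1 and control replicate 2. Those libraries held 1776908 and 1943980 Scgb1a1 counts, and the reason for the conflict is not known.

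No mesenchymal or mesothelial gene passed the test between Abca3 cKO and control, yet most had a higher mean in Abca3 cKO, and a single library carried much of that lean. Of the 33 genes, 24 were at their highest in Abca3 cKO replicate 1, among them all 4 mesothelial markers, whereas 18.6% of all genes tested were highest there. The median log2 fold change of the 33 was 0.30, against 0.00 over all genes tested, and 0.09 without that library. Without it, the fibroblast genes Tcf21, Meox2, Eln, Inmt and Pdgfra had log2 fold changes of 0.61, 0.52, 0.46, 0.42 and 0.41, while the mesothelial genes Upk3b and Lrrn4 went to 0.06 and 0.08. Each class was mixed in this respect. The fibroblast gene Vim lost nearly all of its lean, and Fbn1, Mfap2 and Mfap5 turned negative. Of the other mesothelial genes, Msln stayed positive and Wt1 became more negative.

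To show regulatory sequence beside these patterns, promoter windows are given for Acta2, Cnn1, Upk3b and Lrrn4. They run from 250 bases before to 50 bases after the RefSeq start site (GRCm38.p6). Of the smooth muscle genes Acta2 and Cnn1, only Acta2 peaked in Abca3 cKO replicate 1, where Cnn1 lay near control replicates 1 and 3. The mesothelial genes Upk3b and Lrrn4 both peaked in Abca3 cKO replicate 1. Capitals mark matches to GGAATG on either strand, the core bound by TEAD factors, and near matches to the CArG box of serum response factor, in which at most 1 of the 6 central bases was other than A or T. No 2 marked matches overlap in these windows.
Acta2, chr19:34255324-34255623, minus strand: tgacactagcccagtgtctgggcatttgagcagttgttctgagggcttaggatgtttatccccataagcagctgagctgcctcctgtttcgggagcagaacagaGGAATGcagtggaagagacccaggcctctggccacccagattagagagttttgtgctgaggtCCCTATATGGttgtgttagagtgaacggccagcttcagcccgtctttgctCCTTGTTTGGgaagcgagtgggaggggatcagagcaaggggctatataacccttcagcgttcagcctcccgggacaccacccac
Cnn1, chr9:22099003-22099302, plus strand: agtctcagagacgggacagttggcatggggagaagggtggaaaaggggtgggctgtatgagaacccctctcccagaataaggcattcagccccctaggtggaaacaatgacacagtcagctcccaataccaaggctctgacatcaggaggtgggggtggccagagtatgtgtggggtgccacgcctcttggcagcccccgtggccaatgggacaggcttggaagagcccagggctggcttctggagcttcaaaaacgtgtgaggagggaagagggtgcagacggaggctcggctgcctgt
Upk3b, chr5:136038246-136038545, plus strand: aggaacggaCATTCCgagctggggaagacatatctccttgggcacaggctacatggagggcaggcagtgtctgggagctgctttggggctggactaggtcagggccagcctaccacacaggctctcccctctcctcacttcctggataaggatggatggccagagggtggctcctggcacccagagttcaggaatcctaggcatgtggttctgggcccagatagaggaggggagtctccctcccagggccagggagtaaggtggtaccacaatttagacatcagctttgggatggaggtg
Lrrn4, chr2:132880813-132881112, minus strand: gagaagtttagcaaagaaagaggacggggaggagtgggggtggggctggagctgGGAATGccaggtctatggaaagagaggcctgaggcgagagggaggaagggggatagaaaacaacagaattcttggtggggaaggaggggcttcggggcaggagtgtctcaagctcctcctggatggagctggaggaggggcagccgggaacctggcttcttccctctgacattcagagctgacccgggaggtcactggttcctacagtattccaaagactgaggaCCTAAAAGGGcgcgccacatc

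RefSeq windows were matched for 20 of the 33 genes, 26 windows in all. GGAATG stood in 4 of the 26 (15.4%), against 14.7% of 32851 promoter windows, and a near CArG box in 2 of the 26 (7.69%), against 9.98%. Both shares were near those of promoters in general. Acta2 held a pair of near CArG boxes and a GGAATG, Lrrn4 held 1 of each, Upk3b held a GGAATG and Cnn1 held neither. A match describes the letters only, and none of these windows was measured here.

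Levels per transcript length were compared on the deposited RPKM (reads scaled to transcript length and sequencing depth), averaged over the 6 libraries. Sparc, a collagen-binding matrix protein, led at RPKM 285, and its lowest library, at 217, was above every library of the next gene, Inmt, a methyltransferase typical of mouse alveolar fibroblasts (152). The proteoglycan genes Bgn (110) and Dcn (88.2) and the elastic fibre gene Mfap4 (79.99) followed, then the integrin ligand gene Npnt (50.9) and the mesothelial gene Upk3b (45.3). Steps between neighbours were mostly small: 30 of the 32 pairs of neighbours had overlapping ranges over the 6 libraries. From end to end the levels differed widely, from 285 for Sparc to 0.266 for Cspg4. In all, 13 of the 33 genes had a mean of at least RPKM 10 and 16 were under RPKM 5.

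Within each class the levels were uneven. Dcn stood at RPKM 88.2 but its relative Lum at 2.02, the receptor gene Pdgfra at 11.7 but Pdgfrb, the receptor of pericytes, at 1.23. Among smooth muscle genes Acta2 had RPKM 9.10 and Myh11, the smooth muscle myosin, 6.42, whereas Tagln and Cnn1, which bind actin in the same cells, had 2.21 and 1.44. Pericyte genes were low, with Cspg4, the NG2 proteoglycan, at 0.266, and the mesothelial transcription factor gene Wt1 stood at 0.997 beside Upk3b at 45.3 and Msln at 22.9. The deposited RPKM and CPM divided by merged exon length gave much the same order of the 33 genes (Spearman's rho 0.935 across genes, which are not independent replicates), but the RPKM of Acta2 and Lox was lower than CPM per kilobase by about 3-fold (ratios 0.323 and 0.342), and that of Vim higher (2.45).

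**Figure D1:**
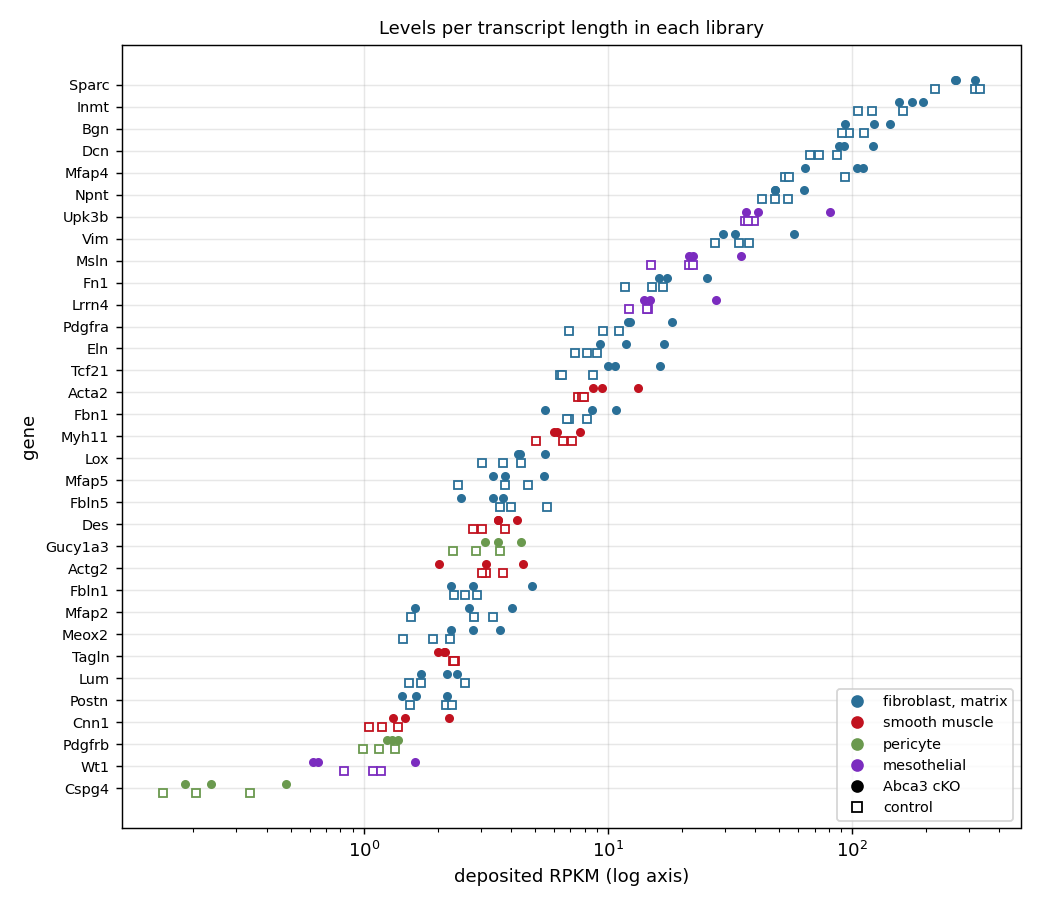
Deposited RPKM of the 33 genes (log axis), 1 row per gene ordered by its mean; each point is a library, filled circles Abca3 cKO and open squares control, coloured by class. Sparc is highest at 217 to 332, Cspg4 lowest at 0.150 to 0.481, and most neighbours overlap.

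The fibroblast genes came nearest to a difference. Values by library are given for Abca3 cKO replicates 1, 2 and 3 and then for control replicates 1, 2 and 3, always in that order. Tcf21, a bHLH transcription factor of the lung mesenchyme (chromosome 10, 22817281 to 22820174, GRCm38), stood at 20.6, 14.3 and 14.6 CPM in Abca3 cKO replicates 1, 2 and 3 and at 8.79, 8.46 and 11.2 CPM in controls. The groups did not overlap, and the log2 fold change was 0.80 (SE 0.212, edgeR adjusted p = 0.155). Eln, which encodes tropoelastin (chromosome 5, 134702593 to 134747323), stood at 79.7, 48.2 and 62.2 CPM against 40.1, 44.9 and 35.2 CPM. Every Abca3 cKO library lay above the controls, replicate 2 only just, and the log2 fold change was 0.66 (SE 0.173, edgeR adjusted p = 0.151). Of the alternatives tried, DESeq2 alone called a member, Eln (adjusted p = 0.0346), and over the alternatives of edgeR, DESeq2 and limma no other member was called.

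Pdgfra, the receptor that marks alveolar fibroblasts and myofibroblast precursors (chromosome 5, 75152292 to 75198215), stood at 274, 193 and 183 CPM in Abca3 cKO against 173, 105 and 147 CPM in controls. The groups were separate, with control replicate 2 the lowest library, and the log2 fold change was 0.61 (SE 0.199, edgeR adjusted p = 0.339). Inmt (chromosome 6, 55170626 to 55175043) stood at 283, 237 and 251 CPM against 174, 148 and 227 CPM. Its Abca3 cKO libraries were close together and above all controls, with control replicate 3 near them, and the log2 fold change was 0.49 (SE 0.146, edgeR adjusted p = 0.230). Meox2, a homeobox gene, stood at 13.3, 11.0 and 16.1 CPM against 11.1, 7.10 and 10.1 CPM, so the groups overlapped at 11.0 and 11.1 CPM (log2 fold change 0.51, edgeR adjusted p = 0.508). Exons of Pdgfra, Eln and 7 other members overlap another annotated gene, so their counts may hold reads of that gene.

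The abundant matrix genes Dcn, Fn1 and Bgn were also highest in Abca3 cKO replicate 1. Dcn, which binds collagen fibrils (chromosome 10, 97479609 to 97518143), stood at 436, 331 and 326 CPM in Abca3 cKO and at 313, 267 and 242 CPM in controls. Replicates 2 and 3 lay just above control replicate 1, and the log2 fold change went from 0.41 (SE 0.139, edgeR adjusted p = 0.325) to 0.26 without replicate 1. Fn1, fibronectin (chromosome 1, 71585520 to 71653200), stood at 364, 246 and 247 CPM against 240, 170 and 208 CPM. Its pattern was the same, with a log2 fold change of 0.47 (edgeR adjusted p = 0.376) and 0.26 without replicate 1. Bgn stood at 701, 487 and 580 CPM against 559, 491 and 449 CPM, and the groups overlapped.

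Vim, the intermediate filament of mesenchymal cells, stood at 109 CPM in Abca3 cKO replicate 1 and at 61.0 and 66.6 CPM in the other Abca3 cKO libraries, against 67.8, 53.5 and 67.8 CPM in controls. Without replicate 1 its log2 fold change went from 0.32 to 0.02. Mfap4 split differently, at 217, 130 and 204 CPM against 186, 104 and 101 CPM, so that 1 control library lay among the high ones. The widely expressed genes Sparc and Npnt overlapped between groups: Sparc stood at 1071, 974 and 907 CPM against 1117, 752 and 1114 CPM (log2 fold change -0.02, 95% interval of the ratio 0.792 to 1.24). Npnt, whose product binds the integrin alpha8 beta1, stood at 736, 586 and 542 CPM against 663, 500.3 and 582 CPM (log2 fold change 0.10, ratio interval 0.866 to 1.32).

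Genes of elastic fibre assembly had fold changes of either sign. Fbln5, which organises elastin on microfibrils (chromosome 12, 101746565 to 101819055), was the 1 member with an unadjusted p under 0.05 on the lower side. It stood at 54.0, 50.6 and 35.6 CPM in Abca3 cKO against 85.6, 53.4 and 59.7 CPM in controls (log2 fold change -0.50, SE 0.196, edgeR adjusted p = 0.433). The groups overlapped, since Abca3 cKO replicate 1 lay above control replicate 2, and the log2 fold change without control replicate 1, the highest library, was -0.27. Set beside Eln at 0.66, the other elastic fibre genes had log2 fold changes of 0.16 for Fbn1, the backbone of microfibrils, 0.50 for Mfap4, 0.11 for Mfap2, 0.15 for Mfap5, 0.32 for Fbln1 and 0.28 for Lox, the enzyme that cross-links elastin. None of these passed (edgeR adjusted p from 0.629 to 0.969), and Fbn1, Mfap2 and Mfap5 had negative values without Abca3 cKO replicate 1. Lum and Postn, a pair of secreted matrix genes, had log2 fold changes of 0.10 and -0.22.

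**Figure D2:**
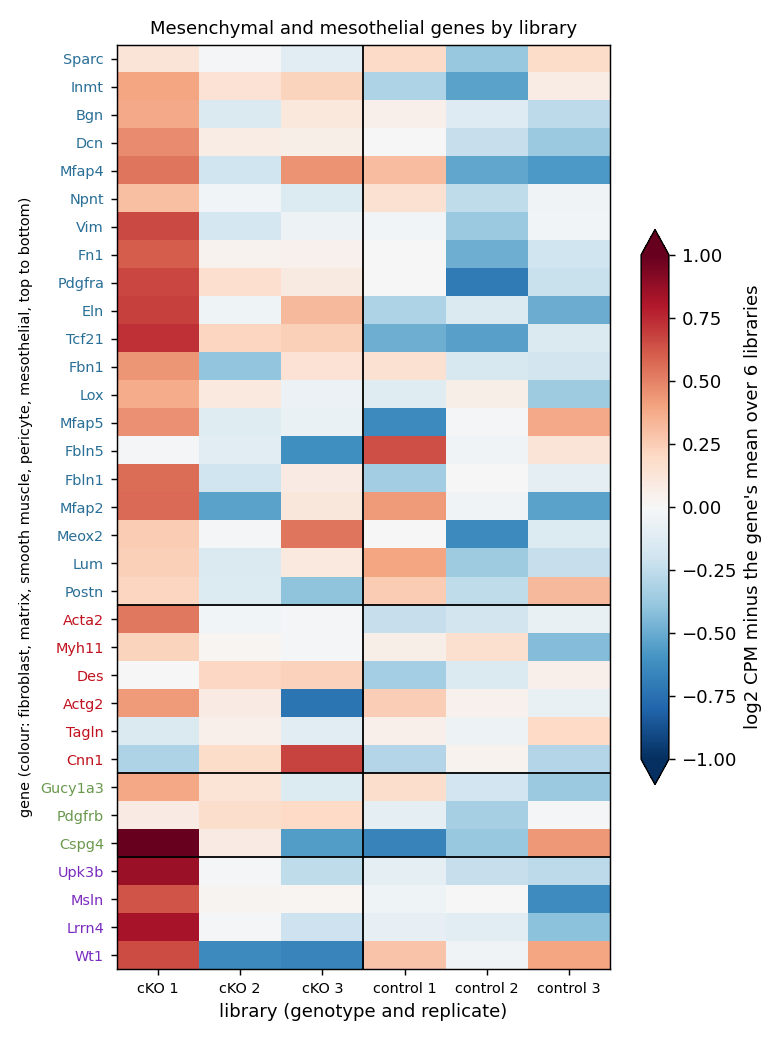
Log2 CPM of each gene minus its mean over the 6 libraries (colour; Cspg4 in Abca3 cKO replicate 1 lies past the scale), with genes grouped by class in rows and libraries in columns. The column of Abca3 cKO replicate 1 is raised for 24 of the 33 genes above every other library, while Cnn1, Tagln and Fbln5 are not.

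Smooth muscle genes divided. Acta2, smooth muscle actin (chromosome 19, 34241090 to 34255590), whose promoter carried the near CArG boxes shown above, stood at 87.6, 59.6 and 60.5 CPM in Abca3 cKO against 52.0, 53.6 and 57.6 CPM in controls. The groups were separate by a narrow margin outside replicate 1, with a log2 fold change of 0.35 (SE 0.152, edgeR adjusted p = 0.495) and 0.14 without that library. Cnn1, calponin, had the opposite order within Abca3 cKO, at 4.22, 6.00 and 8.44 CPM against 4.27, 5.40 and 4.28 CPM. Its lowest value of all 6 was in Abca3 cKO replicate 1, but by little from control replicates 1 and 3. Cnn1 rested on 100 to 209 counts per library. Tagln stood at 9.66, 11.1 and 9.94 CPM and the filament gene Des at 7.60, 8.80 and 8.97 CPM, each also lowest in replicate 1 within Abca3 cKO. Myh11, at 64.4, 56.1 and 54.4 CPM against 57.5, 61.7 and 40.8 CPM, and Actg2, the enteric actin, at 8.40, 6.58 and 3.72 CPM against 7.39, 6.41 and 5.91 CPM, overlapped between groups. The actins and the myosin had their highest value in replicate 1, and Cnn1, Des and Tagln had theirs elsewhere.

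Pericyte genes gave low or flat values. Gucy1a3, a subunit of the nitric oxide receptor guanylate cyclase, listed in the annotation as Gucy1a1, stood at 69.7, 58.7 and 48.3 CPM in Abca3 cKO against 60.2, 46.5 and 41.2 CPM in controls. Pdgfrb did not overlap between groups, at 11.1, 11.9 and 12.1 CPM against 9.84, 8.34 and 10.4 CPM, with a log2 fold change of 0.30 (SE 0.201, edgeR adjusted p = 0.730), and it was not raised in replicate 1. Cspg4, at 5.49, 2.69 and 1.70 CPM against 1.56, 1.93 and 3.45 CPM, rested on 37 to 130 counts per library.

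All 4 mesothelial genes were highest in Abca3 cKO replicate 1. Upk3b, an uroplakin family gene of the mesothelium (chromosome 5, 136038496 to 136046487), stood at 282 CPM in that library and at 153 and 130 CPM in the other Abca3 cKO libraries, against 145, 132 and 129 CPM in controls. Lrrn4, a leucine-rich repeat gene (chromosome 2, 132868305 to 132880891), stood at 187, 105 and 91.6 CPM against 99.8, 98.3 and 79.6 CPM. For both, the other 5 libraries lay in a narrower range and replicate 1 stood above them, by 1.997-fold for Upk3b and 1.90-fold for Lrrn4 over the mean of the other Abca3 cKO libraries. Msln, mesothelin (chromosome 17, 25748613 to 25754378), stood at 108, 71.0 and 70.8 CPM against 67.6, 69.6 and 45.1 CPM. Its groups did not overlap, although replicates 2 and 3 exceeded control replicate 2 by little, and the log2 fold change was 0.45 (SE 0.202, edgeR adjusted p = 0.528), or 0.22 without replicate 1.

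Wt1, the transcription factor of the mesothelium, stood at 9.66, 3.89 and 3.84 CPM against 7.48, 5.95 and 8.05 CPM. It shared the high value in replicate 1 but not the order elsewhere, since its other Abca3 cKO libraries were the lowest of the 6, and its log2 fold change went from -0.31 to -0.89 without replicate 1 (edgeR adjusted p = 0.374).

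Set against all genes, the differences between genotypes were as follows. At an unadjusted p under 0.05, 9 of the 33 genes lay higher and 1 lay lower in Abca3 cKO, where 5.07% and 4.16% of all genes tested were. Groups did not overlap for 9 of the 33, all higher in Abca3 cKO, against 7.34% of all genes tested on the higher side and 6.76% on the lower. The log2 fold change was positive for 27 of the 33 and for 50.3% of all genes tested. Without Abca3 cKO replicate 1, 4 genes were higher at an unadjusted p under 0.05 (Eln, Inmt, Pdgfra and Tcf21) and 2 lower (Fbln5 and Wt1), against 4.11% and 4.06% of all genes, and 22 of the 33 were positive. Without control replicate 2, which differed in Xist, the median log2 fold change was 0.28, and at an unadjusted p under 0.05 there were 7 higher genes and 1 lower gene, against 4.35% and 3.83% of all genes tested in that fit. These genes were chosen with earlier results of the data known, so the counts describe them and test nothing about the group.

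**Figure D3:**
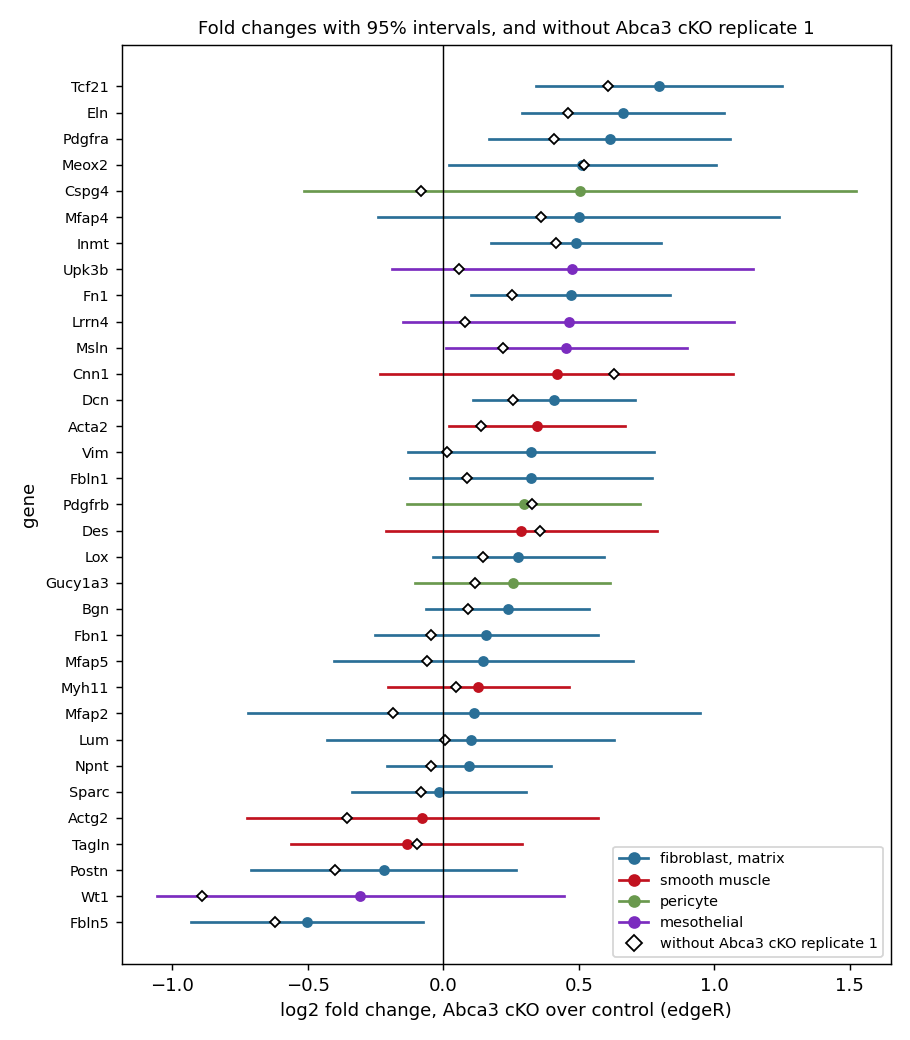
Log2 fold change of each gene, Abca3 cKO over control, from edgeR (filled points, with 95% intervals as bars, coloured by class) and the same without Abca3 cKO replicate 1 (open diamonds). Upk3b goes from 0.48 to 0.06 and Wt1 from -0.31 to -0.89, while Tcf21 goes from 0.80 to 0.61.

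Further genes of the same cell types, were listed beside the 33. Of those tested, 17 of 30 fibroblast genes (56.7%) and 8 of 8 mesothelial genes were highest in Abca3 cKO replicate 1, against 18.6% of all genes tested. The shares of smooth muscle genes (3 of 12, 25%) and pericyte genes (2 of 9, 22.2%) were near that of all genes. Of 33 further fibroblast genes 30 were tested and none was called; at an unadjusted p under 0.05, 4 were higher and 2 lower, and the median log2 fold change was 0.24. The nearest were Ogn, osteoglycin, at 181, 139 and 138 CPM against 110, 93.9 and 108 CPM (edgeR adjusted p = 0.102), the lung mesenchyme factor Tbx4 (log2 fold change 0.58, edgeR adjusted p = 0.246) and Ltbp4, a latent TGF-beta binding protein (0.38, edgeR adjusted p = 0.274). The lower ones were Thy1, a surface protein of some fibroblasts, at 0.844, 0.311 and 0.767 CPM against 1.35, 2.63 and 3.05 CPM (log2 fold change -1.87, edgeR adjusted p = 0.280), and Cyp1b1 (-0.39, edgeR adjusted p = 0.452). Twist1, Twist2 and Fap, markers of activated mesenchyme, were each at or under 0.584 CPM in every library and were not tested. Of 12 further smooth muscle genes, all tested, 1 rose with edgeR: Mylk, myosin light chain kinase, at 290, 286 and 319 CPM against 198, 178 and 210 CPM (log2 fold change 0.61, SE 0.112, edgeR adjusted p = 0.0310). Mylk was not raised in Abca3 cKO replicate 1 over replicate 3, and 6 of the 12 genes had positive values (median 0.07). Of 9 tested further pericyte genes none was called, with Steap4 nearest (log2 fold change 0.63, edgeR adjusted p = 0.105) and the median at 0.09, and Higd1b and Ndufa4l2 were at or under 0.476 CPM in every library.

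Of 10 further mesothelial genes 8 were tested, none was called and the median log2 fold change was 0.37. Muc16 was not among the deposited genes, and Calb2, at 1 count in control replicate 3 and 0 elsewhere, was not tested. All 8 were at their highest in Abca3 cKO replicate 1, as the 4 mesothelial members were. Krt19 was so only narrowly, at 111 CPM there against 109 CPM in control replicate 1. Upk1b stood at 75.0 CPM there and at 50.2 and 44.4 CPM in the other Abca3 cKO libraries, against 46.4, 38.1 and 30.5 CPM in controls. Aldh1a2, which makes retinoic acid, stood at 167, 112 and 98.5 CPM against 109, 92.2 and 69.2 CPM, and Rspo1, a secreted enhancer of Wnt signalling, at 110, 59.1 and 43.7 CPM against 56.7, 69.9 and 47.2 CPM. The ratio of Abca3 cKO replicate 1 to the mean of replicates 2 and 3 had a median of 1.61 over these 8 genes, 1.95 over the 4 mesothelial members, 1.39 over all 33 and 0.996 over all genes tested. It was at least 1.3 for 21 of the 33 and for 17.5% of all genes tested.

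Shared variation was measured as the Pearson correlation of log2 CPM over the 6 libraries after each group's mean was removed, for every pair of genes. Over the 528 pairs of the 33 genes the median was 0.401 and 75.2% of pairs were positive, against a median of -0.001 and 50% over 104784526 pairs of all genes tested. A correlation of at least 0.8 was found for 13.4% of the pairs and for 5.38% of pairs of all genes. By class the median was 0.861 for the 6 mesothelial pairs, 0.546 for the 190 fibroblast and matrix pairs, -0.123 for the 15 smooth muscle pairs and -0.0237 for the 3 pericyte pairs. These are descriptions over 6 libraries that share their preparation, with 4 degrees of freedom left by the group means.

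The gene most aligned with the rest was Dcn, whose median correlation with the other 32 was 0.72, followed by Upk3b at 0.70 and Fn1 at 0.69. Cnn1 and Des stood at the other end, at -0.58 and -0.62. The alignment rested largely on Abca3 cKO replicate 1: without it the median over pairs was 0.121, while leaving out any other library gave 0.408 to 0.609. In that library 28 of the 33 genes were above their group mean, against 51.1% of all genes. Within controls the spread was smaller, with 24 above the mean in replicate 1, 9 in replicate 2 and 17 in replicate 3.

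**Figure D4:**
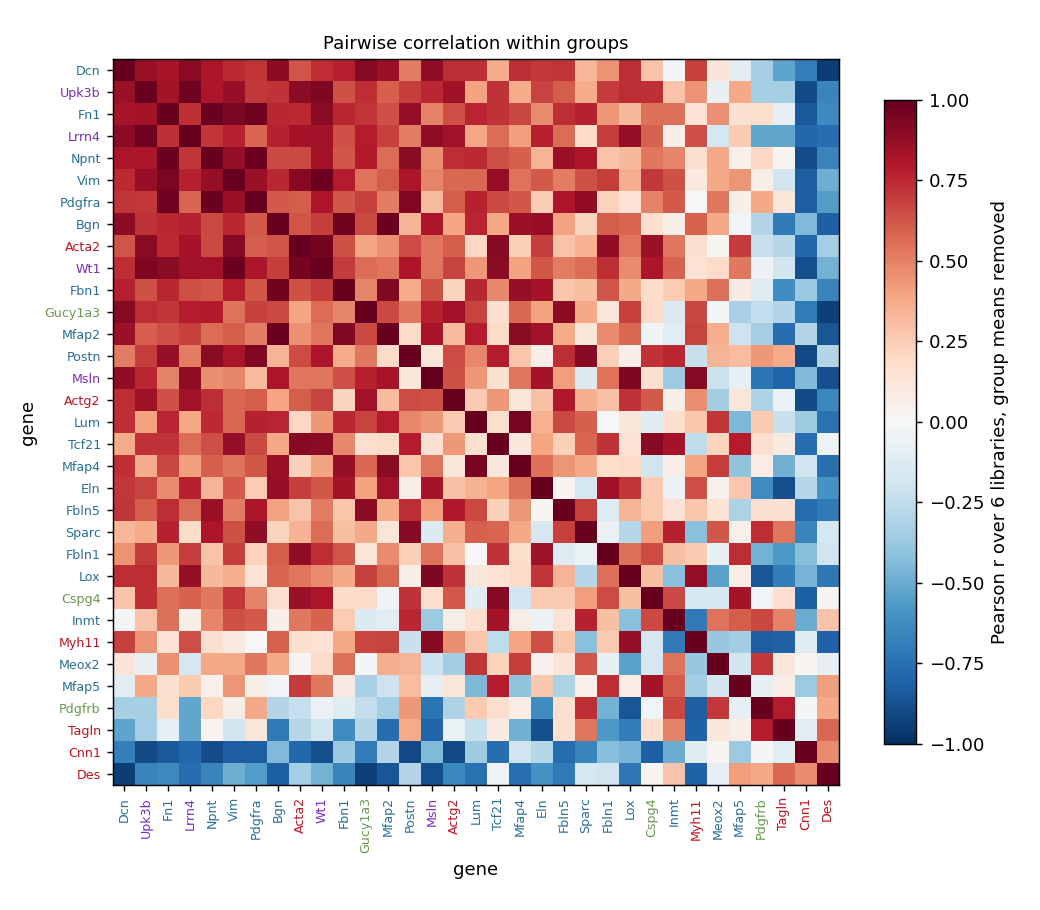
Pearson correlation between each pair of the 33 genes over 6 libraries, with group means removed (colour, -1 to 1), ordered by the median correlation with the other genes and labelled in the colour of the class. A block of positive values runs from Dcn, Upk3b and Fn1 downward, and Cnn1 and Des are negative against most of it.

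Single pairs of lead markers were then compared over the 6 libraries without removing group means, 13 relations in all, with exact permutation tests of all pairings (two-sided). Dcn and Msln, a fibroblast and a mesothelial gene, had Pearson's r = 0.923 (exact p = 0.0236) and Spearman's rho = 0.943 (exact p = 0.0167), with Benjamini-Hochberg adjusted p of 0.163 and 0.217. Without the 2 libraries farthest from the median of Dcn, Abca3 cKO replicate 1 and control replicate 3, r was 0.284. Leaving out the extremes of a gene narrows its range, and r can move either way. Few libraries remain, so these reduced values do not settle whether a relation rests on the libraries left out. Msln and Upk3b had r = 0.819 (exact p = 0.05) and rho = 0.771 (exact p = 0.103), and r = -0.0854 without those 2. Myh11 and Msln had r = 0.888 (exact p = 0.0486) and rho = 0.543 (exact p = 0.297), and r = -0.379 without the 2. Reduced values did not all fall: without the same 2 libraries, Dcn and Pdgfrb went from r = 0.507 to 0.943. Dcn and Myh11 went from r = 0.683 to -0.948, and Myh11 and Pdgfrb from -0.145 to -0.963. Pdgfrb and Msln had r = 0.194, Dcn and Pecam1 0.191, and Dcn and Ptprc -0.419, over all 6 libraries. None of the 13 relations passed after adjustment, and the lowest adjusted p was 0.163. The pairs Dcn and Lum (r = 0.648, exact p = 0.163; rho = 0.543, exact p = 0.297), Pdgfrb and Cspg4 (r = 0.262, exact p = 0.611; rho = 0.143, exact p = 0.803) and Myh11 and Cnn1 (r = 0.0796, exact p = 0.893; rho = -0.543, exact p = 0.297) held no firmer relation within their class. Dcn and the AT2 gene Sftpc had r = -0.876 (exact p = 0.0292) and rho = -0.771 (exact p = 0.103), and r = -0.398 without the 2 libraries. Group means were kept in this value, so it includes the difference between genotypes. Sftpc had a log2 fold change of -0.36, whereas 8 of the 10 AT2 markers had positive ones, and Sftpc does not stand for the AT2 list here.

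Markers of other cells are given beside these values, and their part in them was not tested. The 33 genes summed to 5561, 4145 and 4211 CPM in Abca3 cKO and to 4436, 3456 and 3933 CPM in controls. The 4 mesothelial members summed to 587 CPM in Abca3 cKO replicate 1 and to 262 to 332 CPM in the other 5 libraries. Endothelial markers (10 listed, 7 tested, none called) summed to 92.2, 60.8 and 46.5 CPM in Abca3 cKO and 86.0, 101 and 59.9 CPM in controls, mostly from Kdr at 39.0 to 91.0 CPM. Of the 7 tested, 4 were highest in Abca3 cKO replicate 1 (57.1%), against 18.6% of all genes tested. Those 4 were Pecam1, Cdh5, Egfl7 and Ramp2, each at or under 1.86 CPM there, whereas Kdr was highest in control replicate 2. Pecam1 lay between 0.156 and 1.39 CPM and Emcn had 0 counts in all 6 libraries. Immune markers (11 of 12 listed were in the table, 5 tested, none called) summed to 44.6 to 64.2 CPM against 69.6 to 80.1 CPM. Those sums did not overlap, but every 1 of the 5 tested genes overlapped between groups. The sum of control replicate 2 included Chil3 at 16.9 CPM, against at most 5.37 CPM in any other library. Ptprc lay between 0.121 and 1.58 CPM, Csf1r between 31.8 and 67.1 CPM and Cd68 between 4.63 and 10.8 CPM. Pecam1, Emcn and Ptprc were at or under 1.58 CPM in libraries where Dcn was at 242 CPM or more, while Kdr and Csf1r were at 31.8 CPM or more.

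Epithelial lists differed from each other. The AT2 markers leaned upward in Abca3 cKO as the 33 genes did, with 8 of 10 log2 fold changes positive and a median of 0.35. At an unadjusted edgeR p under 0.05, 6 of the 10 were higher and 1 lower, against 5.07% and 4.16% of all genes tested. The 10 AT2 markers summed to 91460, 91508 and 103068 CPM in Abca3 cKO and 77663, 83120 and 92088 CPM in controls. The sums of Abca3 cKO replicates 1 and 2 were nearly equal. Sftpc and Abca3 were at their lowest of all 6 libraries in Abca3 cKO replicate 1, at 15395 and 571 CPM. The other 8 AT2 markers were lowest in control replicate 1. Of the 10, 1 AT2 marker, Napsa, rose with edgeR. The 10 AT1 markers all had negative log2 fold changes, with a median of -0.44 and none called, and none of them was highest in Abca3 cKO replicate 1. Club and ciliated cell markers summed to 82858 CPM in Abca3 cKO replicate 1 and to 81949 CPM in control replicate 2, the highest sums, and to 52571 to 74322 CPM in the other 4 libraries.

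**Figure D5:**
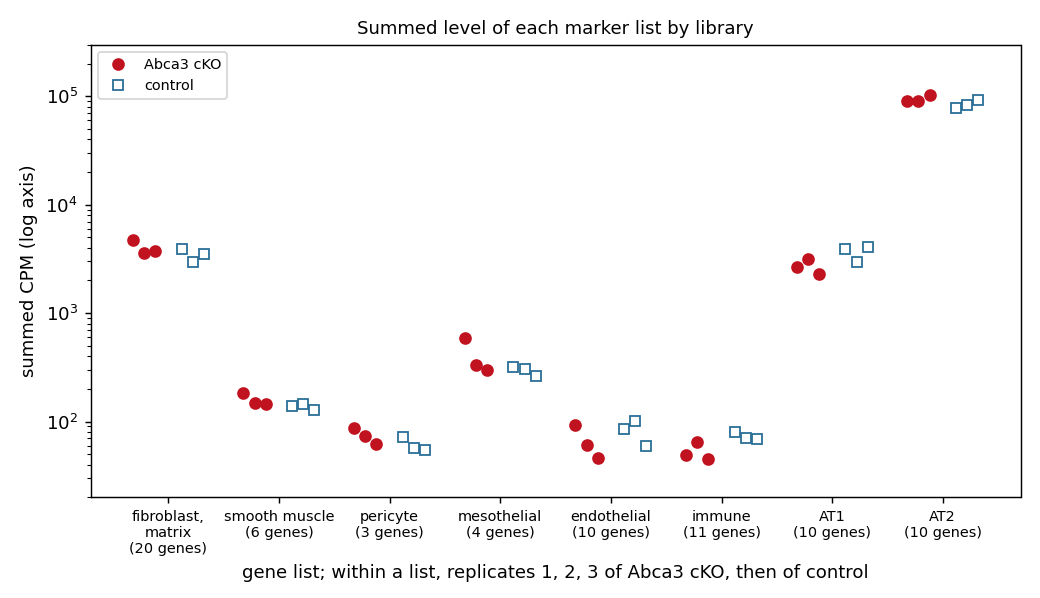
Summed CPM of each marker list (log axis) in each library, filled circles Abca3 cKO and open squares control, with replicates 1 to 3 from left to right. The mesothelial sum of Abca3 cKO replicate 1, at 587, lies above the other 5 libraries, at 262 to 332, and endothelial and immune sums are at or below 101.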

How the data were processed

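RNA of AT2 preparations was sequenced in 3 Abca3 cKO and 3 control libraries. The authors deposited whole-number read counts per gene, not normalized, and RPKM, which corrects counts for transcript length and sequencing depth. Per the submitters' processing notes the build was mm10 (GRCm38), and the tools included TopHat2 2.0.8, Bowtie2 2.1.0, DESeq and Cufflinks 2.0.2, with no roles stated; the counter is not given in the sources used here. Per the labels' protocols the RNA was amplified, so counts are not single molecules. Strand was not kept, so a gene and an overlapping antisense gene share reads.

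Counts were fitted with edgeR 4.0.16 in R 4.3.3 (filterByExpr, TMM, glmQLFit with robust estimation, glmQLFTest, two-sided), with Benjamini-Hochberg adjustment over all 14477 genes tested and calls at an adjusted p under 0.05. Intervals are 95%, and the SE is the fold change in log2 divided by the root of F. Alternatives used DESeq2 1.42.0, limma 3.58.1 on log2(RPKM + 1) or log2(RPKM + 0.1), other filters and scaling, a replicate block and leaving out each library. The script was tested on simulated data. Correlations used log2 CPM with a prior count of 2. Coordinates came from GENCODE M21 (GRCm38), where all 33 genes matched, Gucy1a3 as Gucy1a1, and promoters from RefSeq (GRCm38.p6). Depth was 23531330 to 26071229 counts per library. No library repeated another within its group (chi-square per degree of freedom 32.1 to 54.8).

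The members and lists were chosen with earlier results of these data known. Values in every library were given for the 12 members highest in RPKM, those with an unadjusted p under 0.05 and the highest of each class, plus others whose pattern is described; from other lists, called genes and up to 3 by smallest p or level, and the remaining ones named were chosen after their values were seen. A separate deposited sheet listed symbols without values and was not used.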

Additional observations from a re-analysis of the deposited data

How the results depend on the processing

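No member was called in 15 of 16 analyses; DESeq2 called 1, Eln. The count of all genes called was 55, and 233 with DESeq2 (all 55 shared), 132 without a filter on low counts (all 55 shared), 26 and 27 with limma on log2(RPKM + 1) and log2(RPKM + 0.1), 2 with limma without a filter, and 21 to 50 without 1 library (26 or 27 when Abca3 cKO replicate 1 or 2 was left out, and 21 for control replicate 1). With the replicate block it was 33. The replicate numbers share only a name: same-numbered libraries correlated at 0.0762, -0.0304 and -0.0272 in their deviations, and not every library correlated best with its own number. The block also turned the log2 fold change of Sparc to 0.0044.

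The median log2 fold change of the members ran from 0.087 (without Abca3 cKO replicate 1) to 0.36 over the fits without 1 library, and from 0.21 to 0.30 over the other settings. The median correlation between members was 0.511 on log2(RPKM + 1) and 0.121 to 0.609 without 1 library. Members that turned sign without 1 library were Mfap2 (range -0.19 to 0.39), Mfap5 (-0.080 to 0.41), Fbn1 (-0.047 to 0.35), Npnt (-0.047 to 0.20), Cspg4 (-0.081 to 0.91, at 0.50 with all libraries), Sparc (-0.18 to 0.076), Actg2 (-0.35 to 0.19), Lum (-0.042 to 0.37) and Myh11 (-0.034 to 0.25). None of these was called in any setting. The cause was not tested, except that leaving out Abca3 cKO replicate 1 removes the library where 24 members were highest. The largest standard errors were those of the low genes Cspg4 (0.475), Mfap2 (0.390) and Wt1 (0.349).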
